A study of Mus musculus with 6 samples.

Results

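Heat shock proteins and J-domain chaperones are the core of the protein-folding machinery of the cell, and their transcripts were compared here between paced and sham mouse ventricles. The genes were taken by symbol, as every gene of the table named Hsp followed by a letter or digit, or Dnaja, Dnajb or Dnajc followed by a digit. The proteoglycan Hspg2 and Hspbap1, which match the pattern but are no chaperones of these families, were left out. The rule gave 73 genes of 24239 in the table. They were 3 Hsp90 genes, 13 Hspa (Hsp70) genes, 8 Hspb (small heat shock protein) genes, 45 J-domain genes (4 Dnaja, 13 Dnajb and 28 Dnajc) and 4 others, Hspd1, Hspe1, Hsph1 and Hspbp1. A mean FPKM of at least 1 over the 6 libraries was reached by 62 of the 73, and these were tested among 11994 genes. FPKM is the number of fragments per kilobase of transcript scaled to the size of the library, so that levels of different genes are compared per length.

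The material was ventricular tissue of male C57BL/6 mice, 8 to 10 weeks old, with 3 sham and 3 paced animals and no genetic modification named for either group. The paced mice had their hearts driven from a bipolar esophageal catheter placed beside the atria. A session held a cycle of 80 ms for 45 min, entered and left through 3 min at 120 ms, and sessions were daily, 5 days first and 3 more following a break of 2 days. Sham mice are described as controls without pacing. The pulses were meant for the atria while the RNA is of the whole ventricle, and the time between the last pacing and the removal of the tissue is not stated in the sources used here. The comparison asks whether folding genes of the ventricle differ after 8 days of such pacing.

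Hsp70 proteins bind unfolded stretches of a client protein in a cycle of ATP binding and hydrolysis. J-domain proteins bring them clients and start the hydrolysis, and exchange factors release the nucleotide again. Hsp90 takes over partly folded clients such as kinases, steroid receptors and, in muscle, myosin. Small heat shock proteins need no ATP and hold unfolding proteins in oligomers, and several are abundant in heart muscle, where they lie at the Z-disc and on filaments. Heat shock factor 1 raises many of these genes by binding heat shock elements, inverted repeats of the unit GAA in their promoters. The endoplasmic reticulum (ER) and the mitochondria each have their own Hsp70, J-domain partners and larger chaperones.

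The effective depth was 6276000 to 8908000 fragments per library. All 10 ventricular cardiomyocyte markers were detected in every library, and so were all 11 atrial markers. Detection alone therefore does not set ventricle apart from atrium. The FPKM of the 10 ventricular markers summed to 84979, 103186 and 110655 in sham 1, 2 and 3 and 82891, 85438 and 84164 in paced 1, 2 and 3. The paced mice were thus closer to sham 1 than to the other sham mice. Other cell types varied between libraries. The sum of lung and airway epithelium markers was 4.99, 0.492 and 1.41 in sham 1, 2 and 3 and 2.51, 315 and 1728 in paced 1, 2 and 3, which puts lung transcripts mainly in paced 2 and paced 3. Markers of 3 cell types summed higher in every paced than in every sham mouse, those of erythrocytes with 91.6 to 144 in sham and 172 to 336 in paced mice, of fibroblasts with 817 to 1043 and 1078 to 1369, and of smooth muscle with 117 to 187 and 189 to 247. The sums of macrophage markers (308 to 491 and 465 to 655) and adipocyte markers (1621 to 2021 and 1836 to 2634) overlapped, and so did those of atrial markers. Atrial markers summed to 13273, 746 and 5752 in sham 1, 2 and 3 and 6256, 15370 and 11062 in paced 1, 2 and 3. Sham 1 was thus within the range of the paced mice for atrial markers too. The part of these differences in the results below was not tested, except where a value without the libraries concerned is given. In bulk tissue, fewer cells of a type and less RNA per cell cannot be told apart.

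None of the 62 tested genes passed an adjusted p of 0.05 in limma (Benjamini-Hochberg over the 11994 genes), and neither did any gene in all, that is 0% of the background. The lowest adjusted p of a chaperone was 0.398. At an unadjusted p under 0.05, Hsp90aa1, Hspa2 and Dnajb12 were higher in paced ventricles and Hspa12a, Hspb6, Hspb3 and Dnajc28 were lower. These 7 are 11.3% of the 62, against 8.85% of all genes tested (5.17% higher and 3.69% lower), so that the share is near the background. The 3 paced and the 3 sham values did not overlap for 12 chaperones, 5 of them higher and 7 lower, which is 19.4% against 13.2% of all genes (6.24% higher and 6.97% lower). Differences are given as paced minus sham on the log2(FPKM + 1) scale throughout. Of the 62 differences, 27 were above 0 and 35 below it, with a median of -0.014, while 48.2% of all genes were above 0 with a median of -0.0068. With each library rescaled to the same sum of FPKM, 40 were above 0 and 22 below, with a median of 0.062. Of all genes 8132 were then above 0 and 3862 below, also with a median of 0.062, so that the whole table shifted. The split of all genes at an unadjusted p under 0.05 went from 620 higher and 442 lower to 968 higher and 148 lower. Counts with this same-sum rescaling below are to be read beside that shift. Small differences in either direction therefore hang on the scaling. In the authors' deposited table of the same comparison, 0 of the 73 genes were called, with a lowest q-value of 0.145 (Hspa12a), against 336 called rows of 24341.

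**Figure D1:**
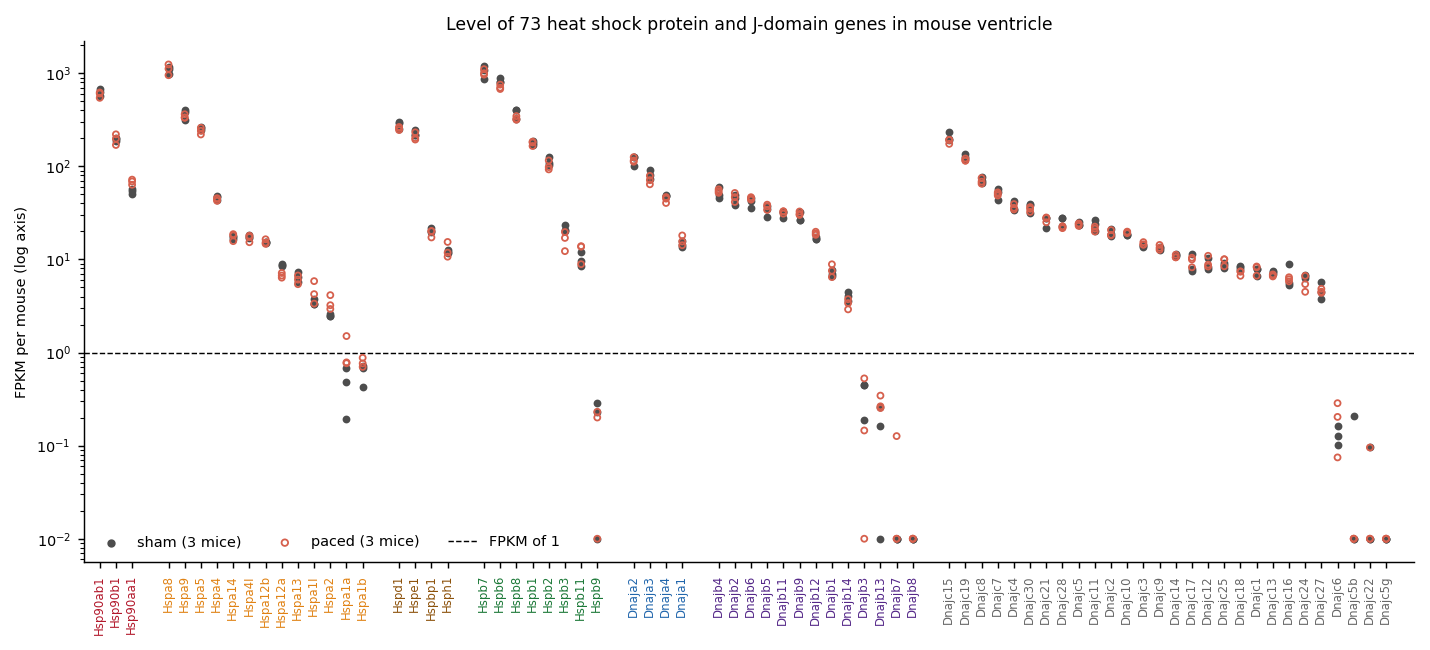
Level of each of the 73 chaperone genes in FPKM on a log axis, by class and mean level, with filled points for the 3 sham mice and open points for the 3 paced mice. The dashed line marks the FPKM of 1 that a gene's mean had to reach to be tested, and 11 genes lie below it, down to Dnajb8 and Dnajc5g at the floor of 0.01 in all 6 libraries.

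**Figure D2:**
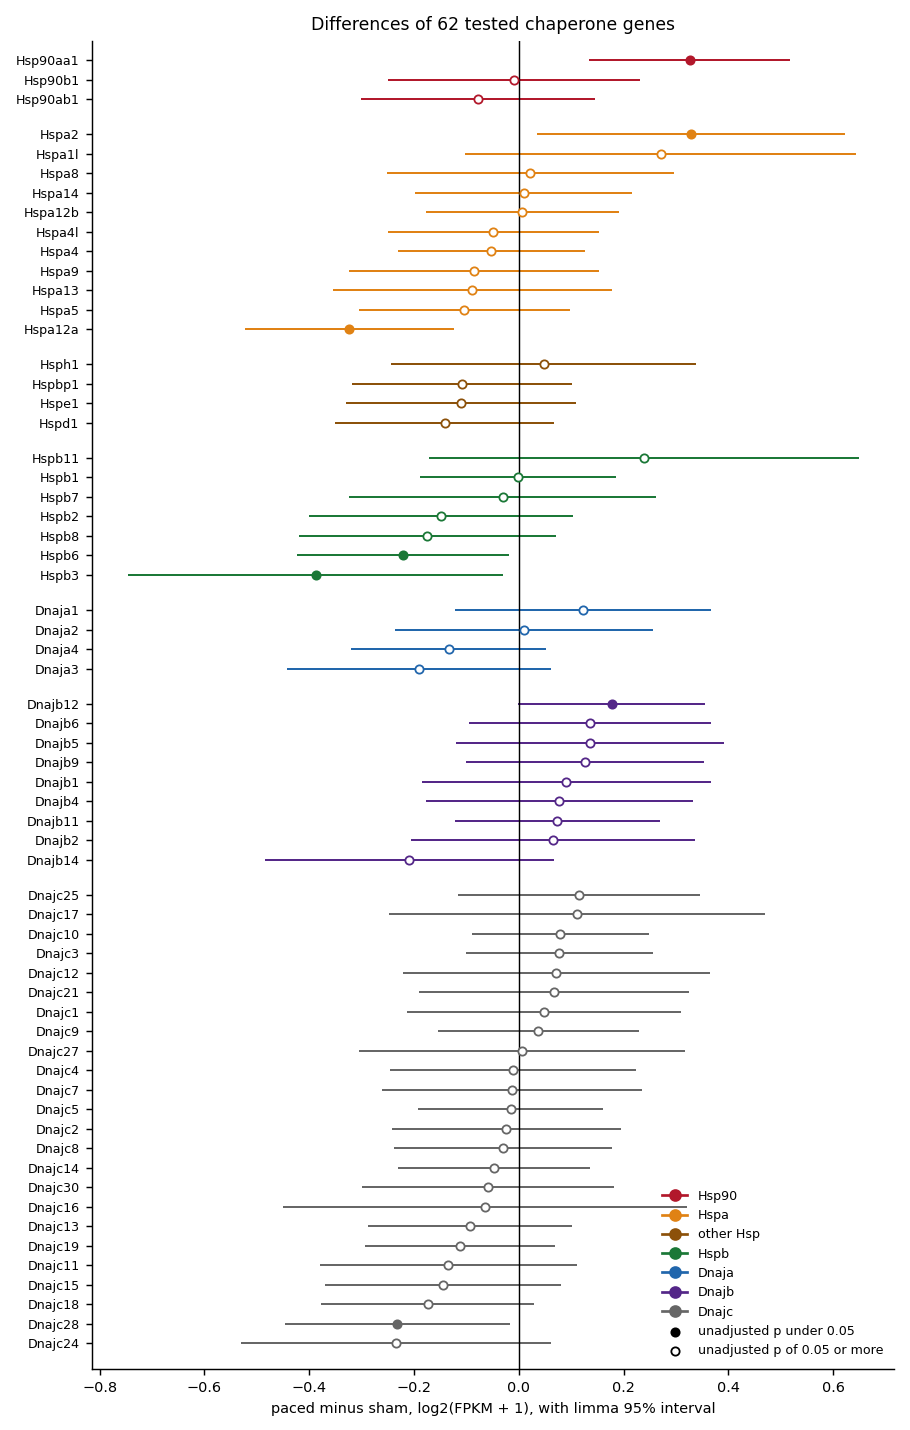
Difference of paced minus sham in log2(FPKM + 1) for the 62 tested genes, with bars for the 95% interval from limma. Points are coloured by class, and the 7 filled ones have an unadjusted p under 0.05, which none kept after adjustment.

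Of the cytosolic Hsp90 pair, Hsp90aa1, the form that stress induces, was higher in every paced than in every sham mouse. The values of Hsp90ab1, the constitutive form, overlapped between the groups. The FPKM of Hsp90aa1 was 57.1, 54.2 and 51.0 in sham 1, 2 and 3 and 72.0, 63.5 and 68.8 in paced 1, 2 and 3. The lowest paced value, in paced 2, was above the highest sham value, in sham 1. The means ± SD were 54.1 ± 3.05 in sham and 68.1 ± 4.34 in paced ventricles (n = 3 each), 25.8% higher (log2 difference 0.33, SE 0.083, 95% interval 0.14 to 0.52, limma adjusted p = 0.398). This gene had the smallest p of the 62, and over the 17 alternative analyses with at least 2 mice a group, each mouse left out in turn among them, its unadjusted p stayed between 0.00293 and 0.0204. Hsp90ab1, which makes up 70.2% of the Hsp90 transcripts per length, had 574, 624 and 676 in sham 1, 2 and 3 and 622, 607 and 545 in paced 1, 2 and 3. The groups overlapped, with a difference of -0.078 (95% interval -0.30 to 0.14). Hsp90b1, the Hsp90 of the ER, had 197, 189.6 and 204 in sham 1, 2 and 3 and 221, 169.8 and 199 in paced 1, 2 and 3, also overlapping (-0.0094, 95% interval -0.25 to 0.23).

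Within each library, Hsp90aa1 as a percent of Hsp90ab1 needs no scaling between libraries. It was 9.96, 8.69 and 7.55 in sham 1, 2 and 3 and 11.6, 10.5 and 12.6 in paced 1, 2 and 3. The lowest paced mouse, at 10.5%, was just above the highest sham mouse, at 9.96%, and the means were 8.73 ± 1.20 and 11.6 ± 1.09 (SD, n = 3 each). The log2 ratio differed by 0.41 with an exact permutation p of 0.1, two-sided, which is the smallest that 3 against 3 mice can give, and 0.4 after adjustment over the 5 ratios computed. Against Hspa8 the percent was 5.76, 4.92 and 4.40 in sham 1, 2 and 3 and 5.79, 5.67 and 7.22 in paced 1, 2 and 3, where sham 1 lay at the level of paced 1 and paced 2 (exact permutation p = 0.2). Of the read-length stretches of 151 bases in Hsp90aa1 transcripts, 28.3% also occur in the pseudogenes Gm12346, Gm5511 and Gm5844, so that how the authors' counting shared such reads bears on the level. Hsp90aa1 lies on chromosome 12 from 110691036 to 110696395 (mm10). The sum over the 3 Hsp90 genes was 828 to 930 FPKM in sham and 812 to 915 in paced mice, so that the total did not separate the groups.

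**Figure D3:**
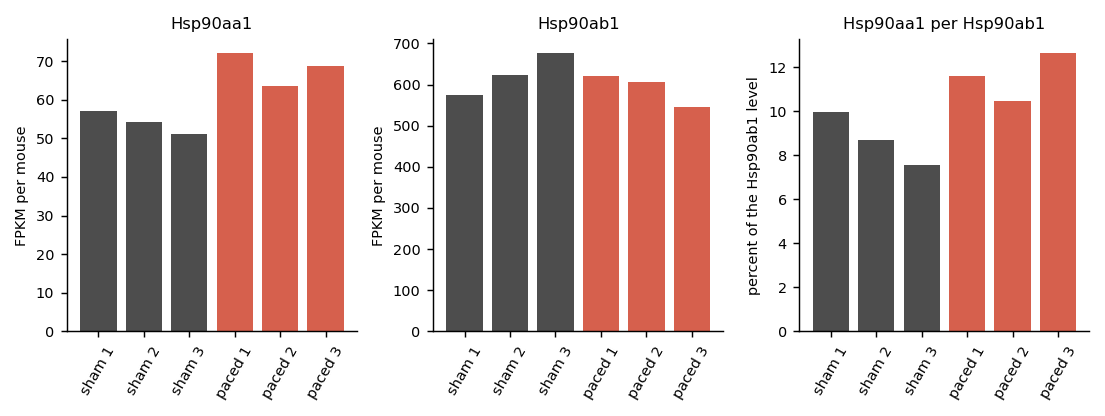
Bars from 0 for each of the 6 mice, for the FPKM of Hsp90aa1, the FPKM of Hsp90ab1 and Hsp90aa1 as a percent of Hsp90ab1. The 3 paced mice are above the 3 sham mice for Hsp90aa1 (63.5 to 72.0 against 51.0 to 57.1) and for the percent (10.5 to 12.6 against 7.55 to 9.96), and mixed with them for Hsp90ab1.

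Among the cochaperones that work with Hsp90, 3 of 21 were lower in every paced than in every sham mouse (14.3%, against 13.2% of all genes without overlap), namely Smyd1, Unc45b and Ppid, which is a share near the background. Smyd1, a methyltransferase that acts with Hsp90 on myosin, had 261, 303 and 278 in sham 1, 2 and 3 and 235, 244 and 226 in paced 1, 2 and 3, so that every paced mouse was below every sham mouse (log2 difference -0.25, SE 0.085, 95% interval -0.45 to -0.058, limma adjusted p = 0.484). Unc45b, the myosin chaperone of striated muscle, had 69.7, 82.7 and 71.7 in sham 1, 2 and 3 and 64.8, 66.4 and 66.3 in paced 1, 2 and 3, again without overlap (-0.18, 95% interval -0.37 to 0.021). Ppid, an immunophilin of many tissues, had means of 31.1 ± 0.582 in sham and 29.1 ± 0.359 in paced ventricles (-0.10). Smyd1 and Unc45b are genes of cardiomyocytes, and the sum of ventricular cardiomyocyte markers given above had its highest values in sham 2 and sham 3 as well, with sham 1 next to the paced mice. That sum was highest in sham 3, while both genes were highest in sham 2. How far the cardiomyocyte level enters either difference was not tested. The glucocorticoid-induced immunophilin Fkbp5 had 6.20, 16.8 and 8.11 in sham 1, 2 and 3 and 14.9, 24.5 and 7.97 in paced 1, 2 and 3, with the mice of both groups spread more than 2-fold (0.55, 95% interval -0.39 to 1.48). Trap1, the Hsp90 of the mitochondria, had 94.9, 118 and 116 in sham 1, 2 and 3 and 109, 105 and 99.9 in paced 1, 2 and 3, which overlapped (-0.058). Of the 21 Hsp90 cochaperones and partners on the list, all were tested, 8 were higher and 13 lower with a median of -0.072 (11 higher and 10 lower with the same-sum rescaling), and Smyd1 alone had an unadjusted p under 0.05.

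The Hsp70 family summed to 1670 to 1929 FPKM in sham and 1642 to 1983 in paced mice, and its largest differences were in members of low level. Hspa8, the constitutive cytosolic Hsp70, made up 60.3% of the family's transcripts per length, with 992, 1102 and 1161 in sham 1, 2 and 3 and 1245, 1120 and 953 in paced 1, 2 and 3. The groups overlapped, with a difference of 0.022 (95% interval -0.25 to 0.29). Of its 151-base stretches, 22.7% also occur in another gene. Of the 11 tested Hspa genes 5 were higher and 6 lower, with a median of -0.049, which turned to 0.025 with the same-sum rescaling.

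Hspa12a, a distant member of the Hsp70 family with an atypical ATPase domain, was lower in paced ventricles. Its FPKM was 8.42, 9.01 and 8.66 in sham 1, 2 and 3 and 6.38, 6.72 and 7.16 in paced 1, 2 and 3. No paced mouse reached the lowest sham mouse. The means ± SD were 8.70 ± 0.297 in sham and 6.75 ± 0.392 in paced ventricles (n = 3 each), a difference of -22.4% (log2 difference -0.32, SE 0.086, 95% interval -0.52 to -0.13, limma adjusted p = 0.399). Its unadjusted p stayed between 0.00176 and 0.0339 over the same 17 alternatives, so that this gene and Hsp90aa1 were the only ones of the 7 under 0.05 in each of them. Hspa12a lies on chromosome 19 from 58795751 to 58860984 (mm10). Its paralog Hspa12b, known from endothelial cells, had means of 15.4 ± 0.215 in sham and 15.5 ± 0.908 in paced ventricles and a difference of 0.0067 (95% interval -0.18 to 0.19), while endothelial markers summed to 481 to 572 in sham and 437 to 501 in paced mice.

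Hspa2, best known for its role in male germ cells, was low in every library and higher in the paced mice. It had 2.46, 2.62 and 2.46 in sham 1, 2 and 3 and 2.94, 4.14 and 3.23 in paced 1, 2 and 3, so that the groups did not overlap and paced 2 stood above the other paced mice (log2 difference 0.33, SE 0.13, 95% interval 0.036 to 0.62, limma adjusted p = 0.539). It lies on chromosome 12 from 76404176 to 76406936 (mm10). Paced 2 was also the highest library for the related Hspa1l, with 3.36, 3.72 and 3.33 in sham 1, 2 and 3 and 3.36, 5.85 and 4.24 in paced 1, 2 and 3, where paced 1 equalled sham 1 and the difference was 0.27 (95% interval -0.10 to 0.64). Without sham 1, sham 3 or paced 2, Hspa2 was no longer under an unadjusted p of 0.05.

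The stress-inducible Hsp70 genes Hspa1a and Hspa1b, which are low in most unstressed tissues, were near the limit of detection in both groups. Their mean FPKM over the 6 libraries, 0.736 and 0.696, was under the filter. The FPKM of Hspa1a was 0.681, 0.193 and 0.485 in sham 1, 2 and 3 and 1.50, 0.784 and 0.768 in paced 1, 2 and 3. These values stand for 14, 4 and 8 fragments in the sham and 32, 16 and 18 in the paced mice, as read from the steps of the values. The paced mice were all above the sham mice, with means of 0.453 ± 0.246 and 1.02 ± 0.420 (SD, n = 3 each) and a ratio of 2.25. The exact permutation p was 0.1, two-sided, the smallest this design allows, and 0.15 after adjustment over the 3 tests of these genes. Hspa1b had 0.678, 0.431 and 0.724 in sham 1, 2 and 3 and 0.702, 0.878 and 0.764 in paced 1, 2 and 3, and sham 3 was above paced 1 (exact permutation p = 0.2). Because 39.5% of the 151-base stretches of Hspa1a and 40.3% of those of Hspa1b also occur in another gene, each being a near copy of the other, the split between them is uncertain and their sum is the safer value. The sum was 1.36, 0.624 and 1.21 in sham 1, 2 and 3 and 2.21, 1.66 and 1.53 in paced 1, 2 and 3, with a ratio of 1.69 and again no overlap (exact permutation p = 0.1). Even the highest of these sums, 2.21 FPKM in paced 1, is far under the level of Hspa8 in any library.

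Apart from Hsp90aa1 and Hspa1a, the genes of the heat-inducible panel used here overlapped between the groups. Hsph1, an exchange factor of Hsp70, had 12.5, 11.6 and 12.1 in sham 1, 2 and 3 and 15.4, 11.8 and 10.7 in paced 1, 2 and 3, with paced 1 alone above all sham mice (0.047, 95% interval -0.24 to 0.34). Dnajb1, the J-domain partner of the stress-inducible Hsp70, had 7.65, 6.57 and 6.98 in sham 1, 2 and 3 and 8.88, 7.57 and 6.46 in paced 1, 2 and 3, with the same order among the paced mice (0.091, 95% interval -0.18 to 0.36). Dnaja1, a cytosolic partner of Hsp70, had 13.5, 15.7 and 14.4 in sham 1, 2 and 3 and 18.1, 14.2 and 15.6 in paced 1, 2 and 3 (0.12, 95% interval -0.12 to 0.36). Paced 1 was the highest library for Hsph1, Dnajb1 and Dnaja1, as it was for Hsp90aa1, Hspa1a and Hspa8. For the other genes on the heat-inducible panel another library was the highest. It was sham 3 for Hspb1, Hsp90ab1 and Hspe1, sham 2 for Hspd1 and paced 2 for Hspa1b. The transcription factor Hsf1 had 16.4, 15.9 and 13.9 in sham 1, 2 and 3 and 16.2, 15.9 and 14.4 in paced 1, 2 and 3 (0.0074, 95% interval -0.20 to 0.22), and Hsf2 had 8.60, 6.86 and 8.96 in sham 1, 2 and 3 and 8.56, 9.03 and 9.64 in paced 1, 2 and 3 (0.15, 95% interval -0.11 to 0.40). The small inhibitor of heat shock factors, Hsbp1, had 143, 139 and 161 in sham 1, 2 and 3 and 139.6, 137 and 128 in paced 1, 2 and 3 (-0.13). These 3 overlapped between the groups. With Hsf4, 3 of the 4 tested genes on this list were higher and 1 lower (2 and 2 when centred on medians), and 0 had an unadjusted p under 0.05.

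Heat shock elements were searched in RefSeq promoters of the build GRCm38.p6, the same assembly as mm10, from 250 bases before to 50 bases after the start site. A promoter was found for 59 of the 73 genes. The element with 3 units, GAANNTTCNNGAA or its reverse complement TTCNNGAANNTTC, occurs in 0.603% of 32851 promoters. Counted by gene, since a gene can have several promoters, it occurs in 0.662% of 27025 genes and in 4 of the 59 (6.78%), Hspd1, Hspe1, Hsph1 and Dnajb6. The element with 2 units, GAANNTTC, which is its own reverse complement and is held by each longer one, occurs in 7.86% of the promoters, in 9.04% of all genes and in 14 of the 59 (23.7%), among them Hspa1a, Hspa1b, Hspb1, Hspb3, Hspb6, Hspb8, Dnaja1 and Dnaja4. A match is a run of letters and not a measured binding site. A promoter each from Hspd1 and Dnajb6 is shown because these hold the longer element. The genes nevertheless stood on opposite sides of 0 in paced ventricles. Those of Hspb6 and Hspb3 are shown because these Hspb genes had an unadjusted p under 0.05 in limma, both being lower. Hspb8 and Hspb1 also hold the element with 2 units. Their paced minus sham differences were -0.17 and -0.0016, with overlapping groups. Whether the element bears on these differences was not tested. The letters of the units are in capitals, 5′ to 3′ on the strand of the gene.
Hspd1, minus strand, chr1:55088029-55088106: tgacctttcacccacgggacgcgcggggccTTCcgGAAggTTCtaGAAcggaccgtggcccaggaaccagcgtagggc
Dnajb6, plus strand, chr5:29735822-29735894: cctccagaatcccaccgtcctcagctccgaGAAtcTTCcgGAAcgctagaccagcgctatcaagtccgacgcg
Hspb6, plus strand, chr7:30553151-30553218: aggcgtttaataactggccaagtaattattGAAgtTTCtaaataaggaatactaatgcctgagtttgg
Hspb3, minus strand, chr13:113663863-113663926: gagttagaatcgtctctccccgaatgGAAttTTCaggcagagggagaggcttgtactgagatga
The stretch of Hspd1 lies between it and Hspe1, which is transcribed the other way, and its 4 consecutive units hold 2 overlapping matches that count for both genes.

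The genes behind the longer elements overlapped between the groups. Hspd1, the large subunit of the mitochondrial chaperonin, had 255, 303 and 293 in sham 1, 2 and 3 and 265, 246 and 258 in paced 1, 2 and 3 (-0.14, 95% interval -0.35 to 0.064). Hspe1, its co-chaperonin lid from the other side of the same promoter region, had 218, 216 and 243 in sham 1, 2 and 3 and 232, 202 and 194 in paced 1, 2 and 3 (-0.11, 95% interval -0.33 to 0.11). Both were lower on average with overlapping groups, as 3 of the 4 genes outside the large families were. Dnajb6, which keeps proteins from aggregating and is mutated in a limb-girdle muscular dystrophy, had 35.7, 42.6 and 45.6 in sham 1, 2 and 3 and 46.7, 43.9 and 45.1 in paced 1, 2 and 3 (0.14, 95% interval -0.093 to 0.36). Hspbp1, a nucleotide exchange factor of Hsp70, had 20.4, 21.9 and 19.9 in sham 1, 2 and 3 and 20.2, 20.1 and 17.2 in paced 1, 2 and 3 (-0.11).

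Small heat shock proteins were the most abundant class in the ventricle and the one that leaned most to lower levels. Their FPKM summed to 2311, 2710 and 2720 in sham 1, 2 and 3 and 2349, 2515 and 2260 in paced 1, 2 and 3, of which Hspb7 made up 42%. Of the 7 tested, 6 were lower and only Hspb11 was higher, with a median of -0.15 beside -0.0068 over all genes. The paced mice lay at -0.10, -0.13 and -0.11 in the median deviation from the sham mean, and the sham mice at -0.055, -0.037 and 0.086. Paced and sham mice did not overlap in this median, although sham 1 was nearer to paced 1 than to sham 3. The counts and the median of the class moved with scaling and with single mice. With the same-sum rescaling 3 of the 7 were higher and 4 lower, with a median of -0.071 beside 0.062 over all genes. Centred on medians, 1 was higher and 6 lower, with a median of -0.17 beside -0.032. Quantile normalization gave 3 higher and 4 lower, with a median of -0.12 beside -0.026. Without sham 3 the median of the class was -0.070.

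Hspb6, also called Hsp20, is a small heat shock protein of muscle that protein kinase A phosphorylates. It had 797, 811 and 879 in sham 1, 2 and 3 and 700.4, 755 and 678 in paced 1, 2 and 3. Each paced mouse was below each sham mouse, with means ± SD of 829 ± 44.0 in sham and 711 ± 39.8 in paced ventricles (n = 3 each), a difference of -14.2% (log2 difference -0.22, SE 0.088, 95% interval -0.42 to -0.021, limma adjusted p = 0.540). Hspb6 lies on chromosome 7 from 30553302 to 30555439 (mm10), and its shown element is upstream of that start. Hspb3, of the muscle pair Hspb2 and Hspb3 that form a complex, had 20.0, 20.6 and 23.5 in sham 1, 2 and 3 and 12.3, 17.0 and 19.7 in paced 1, 2 and 3. The paced mice were lower but wide apart, and paced 3, at 19.7, was just under sham 1, at 20.0 (log2 difference -0.39, SE 0.16, 95% interval -0.74 to -0.031, limma adjusted p = 0.542). It lies on chromosome 13 from 113662896 to 113663676 (mm10). Its partner Hspb2 had 109.8, 104 and 126 in sham 1, 2 and 3 and 92.8, 116 and 98.3 in paced 1, 2 and 3, with paced 2 above 2 of the sham mice (-0.15, 95% interval -0.40 to 0.10). Hspb2 shares its locus coordinates in the table with its neighbour Cryab, and how reads were split between them was not tested. As a percent of Hspb2, Hspb3 was 18.2, 19.8 and 18.7 in sham 1, 2 and 3 and 13.2, 14.7 and 20.1 in paced 1, 2 and 3, so that paced 1 and paced 2 were low and paced 3 was the highest library (exact permutation p = 0.4).

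The remaining small heat shock proteins overlapped between the groups. Hspb7, a heart protein that binds filamin C, had 875, 1193 and 1097 in sham 1, 2 and 3 and 1002, 1108 and 967 in paced 1, 2 and 3 (-0.031, 95% interval -0.32 to 0.26). Hspb8, which works with Bag3 in the removal of damaged muscle proteins, had 319.9, 404 and 399 in sham 1, 2 and 3 and 347, 326 and 317 in paced 1, 2 and 3, with sham 1 below 2 of the paced mice (-0.17, 95% interval -0.42 to 0.069). Bag3 itself had 57.5, 74.4 and 71.5 in sham 1, 2 and 3 and 76.2, 65.4 and 60.7 in paced 1, 2 and 3 (-0.0060, 95% interval -0.29 to 0.27). Hspb1, the widely expressed Hsp25 of the mouse, had 176, 168 and 186 in sham 1, 2 and 3 and 181, 184 and 166 in paced 1, 2 and 3 and the smallest difference of the class (-0.0016, 95% interval -0.19 to 0.18), and 39.0% of its 151-base stretches also occur in the pseudogene Hsp25-ps1. Cryab, or alpha B-crystallin, belongs to the same family without bearing its name. It was the most abundant of all these genes, with 2084, 2372 and 2502 in sham 1, 2 and 3 and 2172, 2102 and 1895 in paced 1, 2 and 3 (-0.17, 95% interval -0.42 to 0.077). Hspb11, now known as a component of the transport trains in cilia, was the one higher, with 12.0, 9.70 and 8.48 in sham 1, 2 and 3 and 13.9, 8.90 and 13.7 in paced 1, 2 and 3 (0.24, 95% interval -0.17 to 0.65).

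The ratio of Hspb6 to other cardiomyocyte transcripts did not separate the groups. As a percent of Myl2, the ventricular myosin light chain, Hspb6 was 2.96, 2.26 and 2.23 in sham 1, 2 and 3 and 2.75, 2.94 and 2.55 in paced 1, 2 and 3, which is higher on average in the paced mice (log2 difference 0.15, exact permutation p = 0.4). As a percent of Hspb7 it was 91.1, 68.0 and 80.2 in sham 1, 2 and 3 and 69.9, 68.2 and 70.1 in paced 1, 2 and 3, with paced and sham mice mixed (exact permutation p = 0.4). The sum of ventricular cardiomyocyte markers in sham 1 was within the range of the paced mice, while Hspb6 in sham 1, at 797, was with the other sham mice. The part of the cardiomyocyte level in the difference of Hspb6 was not tested.

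**Figure D4:**
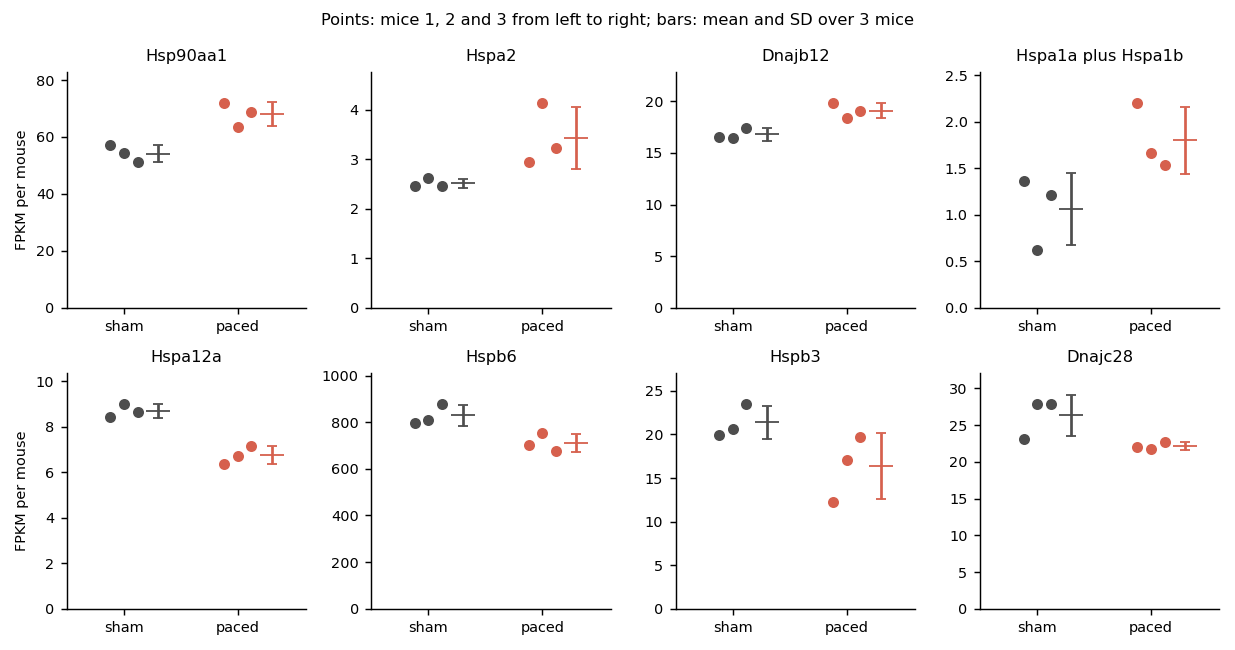
FPKM of each mouse, from 0, for genes named in the text, with mice 1, 2 and 3 from left to right in each group and bars for the mean and SD over 3 mice. Hsp90aa1 and Hspa12a separate the groups most clearly, while in Hspb3 paced 3 comes close to sham 1.

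J-domain proteins set where and on what Hsp70 works, and as a class their direction moved with the scaling, as that of all genes did. Of the 37 tested, 19 were higher and 18 lower, with a median of 0.0064 beside -0.0068 over all genes. The class median was -0.018 when centred on medians, beside -0.032 over all genes. With the same-sum rescaling 27 were higher and 10 lower (median 0.068), beside 8132 higher and 3862 lower of all genes (median 0.062). The subclasses leaned in different directions. Among the 9 tested Dnajb genes 8 were higher with a median of 0.091 (6 of 9 with a median of 0.037 without sham 1, and a median of 0.16 without sham 2), of the 24 Dnajc genes 9 were higher and 15 lower with a median of -0.020 (17 higher and 7 lower with the same-sum rescaling), and of the 4 Dnaja genes 2 were higher and 2 lower. The spread of such a subclass median between mice of 1 group was 0.10 for Dnajb, 0.052 for Dnajc and 0.10 for Dnaja on the same scale, so that each subclass median was smaller than its spread. Sham 1 held the lowest sham value in 38 of the 62 chaperone genes (61.3%), against 37.0% of all genes tested.

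Dnajb12, a J-domain protein of the ER membrane that helps to assemble ion channels, was the one Dnajb gene with an unadjusted p under 0.05. Its FPKM was 16.5, 16.4 and 17.4 in sham 1, 2 and 3 and 19.9, 18.4 and 19.1 in paced 1, 2 and 3, higher in every paced mouse (log2 difference 0.18, SE 0.077, 95% interval 0.00063 to 0.35, limma adjusted p = 0.563). It lies on chromosome 10 from 59879591 to 59898016 (mm10). Under 13 of the 18 alternatives its p was above that threshold. The most abundant Dnajb genes were Dnajb4, which is mutated in a myopathy, with 45.2, 60.5 and 49.6 in sham 1, 2 and 3 and 56.7, 52.0 and 54.2 in paced 1, 2 and 3 (0.077), and Dnajb2, which is mutated in a motor neuropathy, with 38.5, 49.7 and 45.7 in sham 1, 2 and 3 and 51.8, 46.7 and 41.5 in paced 1, 2 and 3 (0.064). Both ranged as widely in sham as between the groups. Dnajb5 had means of 33.5 ± 4.62 in sham and 36.7 ± 2.42 in paced ventricles (0.14), and Dnajb14, the paralog of Dnajb12, was the one lower member, with means of 4.03 ± 0.434 in sham and 3.35 ± 0.419 in paced ventricles (-0.21, 95% interval -0.48 to 0.065).

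Type A J-domain proteins, which resemble bacterial DnaJ, showed no common direction. Dnaja2, the most abundant, had 100.3, 127 and 126 in sham 1, 2 and 3 and 126, 112 and 116 in paced 1, 2 and 3 (0.0095, 95% interval -0.23 to 0.25), with sham 1 below every other library. Dnaja3, the mitochondrial member also called Tid1, had 73.6, 91.6 and 80.2 in sham 1, 2 and 3 and 79.1, 71.1 and 64.2 in paced 1, 2 and 3 (-0.19, 95% interval -0.44 to 0.059). Dnaja4 had 47.8, 48.5 and 48.9 in sham 1, 2 and 3 and 46.8, 45.0 and 40.4 in paced 1, 2 and 3, with every paced mouse below every sham mouse by a small margin (-0.13, 95% interval -0.32 to 0.050).

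The 2 most abundant Dnajc genes are mitochondrial, and both were lower on average in paced mice with overlapping groups. Dnajc15, a J-domain protein of the inner membrane, had 196, 192 and 233 in sham 1, 2 and 3 and 193, 192 and 175 in paced 1, 2 and 3 (-0.15, 95% interval -0.37 to 0.078). Dnajc19, of the same membrane and mutated in a dilated cardiomyopathy with ataxia, had 125, 120.1 and 136 in sham 1, 2 and 3 and 116, 121 and 115 in paced 1, 2 and 3 (-0.11, 95% interval -0.29 to 0.067). The splicing-associated Dnajc8 came next, with 69.5, 66.5 and 77.3 in sham 1, 2 and 3 and 68.6, 65.2 and 75.0 in paced 1, 2 and 3 and overlapping groups (-0.030). Dnajc28, a little-studied mitochondrial J-domain protein, was the Dnajc gene with the smallest p. It had 23.1, 27.9 and 27.9 in sham 1, 2 and 3 and 22.0, 21.7 and 22.8 in paced 1, 2 and 3, where the paced mice were close together just under sham 1 (log2 difference -0.23, SE 0.093, 95% interval -0.44 to -0.020, limma adjusted p = 0.542). It lies on chromosome 16 from 91614257 to 91618999 (mm10). Dnajc18, of the ER membrane, and Dnajc13, of endosomes, were the other Dnajc genes with every paced mouse lower (differences of -0.17 and -0.093). Dnajc24, which serves diphthamide synthesis, had the lowest difference of the subclass at -0.23 with overlapping mice.

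Ordered by compartment, a grouping made after the values had been seen, the mitochondrial chaperones were all lower on average, and 8 of 9 with the same-sum rescaling, where their median was -0.060. The 9 were Hspa9, Hspd1, Hspe1, Dnaja3, Dnajc11, Dnajc15, Dnajc19, Dnajc28 and Dnajc30, with differences from -0.23 to -0.059 and a median of -0.13. Hspa9, the Hsp70 of the matrix, had 317, 399 and 382 in sham 1, 2 and 3 and 363, 336 and 333 in paced 1, 2 and 3 (-0.085, 95% interval -0.32 to 0.15). The median deviation from the sham mean was -0.15, 0.087 and 0.085 in sham 1, 2 and 3 and -0.094, -0.12 and -0.20 in paced 1, 2 and 3. Sham 1 was thus within the range of the paced mice, and the direction rests on sham 2 and sham 3. Sham 1 was also the sham library with the lowest sum of ventricular cardiomyocyte markers and the highest sum of atrial markers. The part of either in this direction was not tested. On the list of mitochondrial folding and proteolysis genes, 11 of 12 were lower, with a median of -0.10 and 0 at an unadjusted p under 0.05, and 4 of these 12 are among the 9. With the same-sum rescaling 4 of the 12 were higher and 8 lower, with a median of -0.021.

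The ER chaperones were mixed. Of 11 genes 6 were higher and 5 lower, with a median of 0.048, which was -0.0081 without sham 1 and 0.12 with the same-sum rescaling. Of these 11, Dnajb12, Dnajc3 and Dnajc10 were higher and Dnajc18 was lower in every paced than in every sham mouse, against 6.24% of all genes higher and 6.97% lower in that way. Hspa5, the ER Hsp70 also called BiP, had 246, 261 and 266 in sham 1, 2 and 3 and 259.6, 220.2 and 241 in paced 1, 2 and 3 (-0.10, 95% interval -0.30 to 0.10). Its J-domain partner Dnajc3, which also inhibits the kinase PERK, had 14.0, 14.3 and 13.5 in sham 1, 2 and 3 and 15.4, 14.4 and 14.5 in paced 1, 2 and 3 (0.077, 95% interval -0.10 to 0.25). Here the lowest paced mouse and the highest sham mouse were nearly level. Dnajb9, another partner and a target of the unfolded protein response, had 26.5, 32.7 and 26.7 in sham 1, 2 and 3 and 30.1, 30.8 and 32.8 in paced 1, 2 and 3 (0.13, 95% interval -0.10 to 0.35), and Dnajb11, a partner in the ER lumen, had 32.2, 27.8 and 32.0 in sham 1, 2 and 3 and 32.9, 32.9 and 31.1 in paced 1, 2 and 3 (0.073). Dnajc10, a J-domain protein with disulfide reductase activity, had means of 18.4 ± 0.380 in sham and 19.5 ± 0.362 in paced ventricles (0.079). On the list of ER lumen folding genes, which includes 5 of these, 10 of 16 were higher and 6 lower with a median of 0.039 and 0 at an unadjusted p under 0.05. With the same-sum rescaling 13 were higher and 3 lower (median 0.12), and without paced 2 and paced 3 14 were higher and 2 lower. Calr, a lectin chaperone that also stores calcium, had 188, 167 and 184 in sham 1, 2 and 3 and 197, 154 and 169.8 in paced 1, 2 and 3 (-0.057).

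The ER stress response element, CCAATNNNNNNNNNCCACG on either strand, occurs in 39 of 32851 promoters (0.119%), in 0.137% of all genes and in 3 of the 59 chaperone genes (5.08%), Hspa5, Hsp90b1 and Dnajc3. These promoters are shown because the genes carry the same full element, yet their transcripts stood on different sides of 0. The fixed letters of the element are in capitals, 5′ to 3′ on the strand of the gene, and that of Hsp90b1 has 2 of them.
Hspa5, plus strand, chr2:34771995-34772073: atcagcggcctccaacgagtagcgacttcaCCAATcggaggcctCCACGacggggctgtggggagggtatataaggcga
Hsp90b1, minus strand, chr10:86705503-86705686: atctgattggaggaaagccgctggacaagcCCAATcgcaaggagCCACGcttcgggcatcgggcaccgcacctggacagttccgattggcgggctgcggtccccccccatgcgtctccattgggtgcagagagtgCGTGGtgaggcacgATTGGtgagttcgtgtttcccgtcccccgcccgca
Dnajc3, plus strand, chr14:118937797-118937875: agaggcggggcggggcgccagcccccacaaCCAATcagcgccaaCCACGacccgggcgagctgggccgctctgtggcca
Among the paced mice, paced 1 was the highest and paced 2 the lowest library for all 3 genes.

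**Figure D5:**
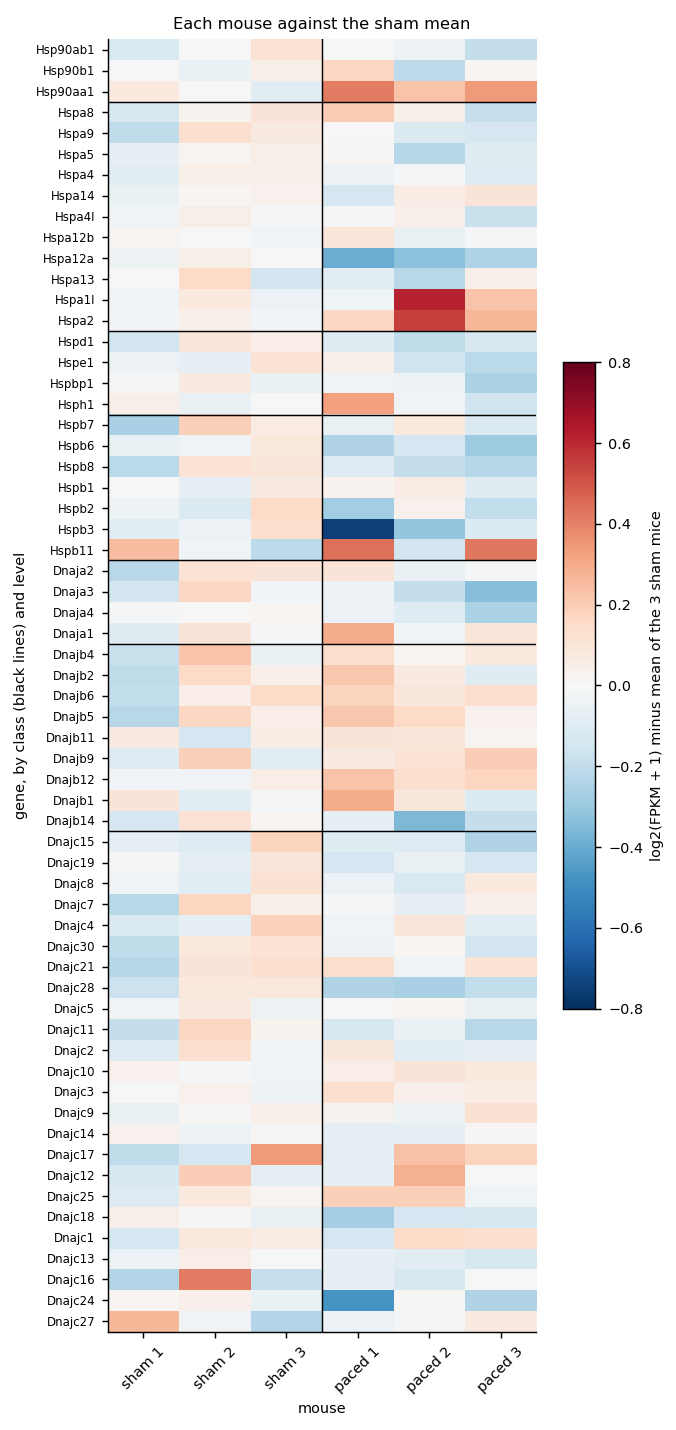
Each mouse's log2(FPKM + 1) minus the mean of the 3 sham mice, as a colour, for the tested genes in rows by class and level and the 6 mice in columns. Sham 1 is the lowest of the sham mice in 38 of the 62 genes, and the Hspb rows are mostly below 0 in the paced columns.

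Partners of these chaperones outside the families were taken from lists of heat shock factors, cochaperones, the cytosolic chaperonin TRiC with prefoldin, and ER and mitochondrial folding. Of their 91 genes, 76 were tested and belong to none of the families above. Of these, 31 were higher and 45 lower with a median of -0.035. With the same-sum rescaling 52 were higher and 24 lower, with a median of 0.041 beside 0.062 over all genes. At an unadjusted p under 0.05, 0 were higher and 2 lower (2.63%, against 8.85% of all genes), with Smyd1 among them. Of the 19 tested Hsp70 cochaperones and exchange factors, 9 were higher and 10 lower (15 and 4 with the same-sum rescaling). Bag1, the most abundant, had 208, 217 and 269.6 in sham 1, 2 and 3 and 205, 222 and 211 in paced 1, 2 and 3 (-0.11, 95% interval -0.36 to 0.13). Of the 14 tested genes of TRiC and prefoldin, which fold actin and tubulin, 3 were higher and 11 lower with a median of -0.039, and with the same-sum rescaling 11 were higher and 3 lower. Pfdn5, the most abundant of these, had 316, 307 and 368 in sham 1, 2 and 3 and 301, 325 and 336 in paced 1, 2 and 3 (-0.040).

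Libraries that stood apart changed which genes reached an unadjusted p under 0.05, and in none of these fits did a chaperone pass the adjusted threshold. Without sham 1 there were 1 higher and 8 lower chaperones, the lower ones being Hspa12a, Hspb6, Hspb3, Hspb8, Hspd1, Dnaja3, Dnajc11 and Dnajc28, with a lowest adjusted p of 0.127, and 107 genes in all passed. These 9 are 14.5% of the chaperones, and 14.5% of all genes were at that p in the same fit (1005 higher and 733 lower), so that the share is that of the background. Without sham 3 there were 1 higher and 1 lower, 3.23% of the chaperones against 6% of all genes (405 higher and 315 lower). These were Hsp90aa1 and Hspa12a, which kept this p in all 6 fits without 1 mouse. Hspb6 lost it without sham 3, paced 1 or paced 3, and Hspb3 without sham 2, sham 3, paced 1 or paced 2. Dnajc28 kept it only without sham 1, and Dnajb12 lost it in all 6. Without paced 2 and paced 3, which hold the lung transcripts, paced 1 alone stood against the 3 sham mice, so that the spread came from the sham mice and paced 1 was assumed to vary like them. In that fit 2 chaperones were higher and 3 lower (8.06%, against 4.99% of all genes), Hsp90aa1 and Hspa12a among them.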

How the data were processed

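PolyA RNA of 6 ventricles was sequenced as stranded libraries with paired reads of 151 bases, per the labels' protocols. The mm10 build and the tools Cuffdiff, Cufflinks, Bowtie2 2.2.6, TopHat2 2.1.0 and FastQC 1.0.0 appear in the submitters' processing notes. Neither annotation nor strand setting is stated in the sources used here, so antisense overlaps were not separated. The authors deposited 1 FPKM value per gene and mouse, with 0.01 where no fragment is reported, and, per the file headers, a table of the comparison with q-values and calls. The comparison table served only for the sentence that names it. 0 columns of other samples were present.

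The labels and series design describe separate animals. No pair of libraries shared more than 0.0135% of values. FPKM is no count, so limma 3.58.1 (R 4.3.3, group as the only term, eBayes with a trend, two-sided, Benjamini-Hochberg) was fitted to log2(FPKM + 1) of the genes whose mean FPKM reached 1. The pseudocount of 1 understates the change of low genes. 1 row with a failed value was left out. Steps of the FPKM of 599 single-exon genes, with lengths shortened by 166 bases, gave the effective depth and the fragments behind low values. 100% of their values under 10 fragments were whole within 0.05 of a fragment. Single values were tested by exact permutation over mice. The fit was tested on simulated data, with changes larger than any chaperone difference here and without shifts shared by the genes of a library. That test does not bear on differences of the size seen here. Alternatives were other pseudocounts, filters, scalings and eBayes settings, array weights, a block by replicate number and each mouse left out in turn.

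The genes and lists were chosen with earlier results of these data known. Values per mouse were given for genes with an unadjusted p under 0.05, the 3 highest and the smallest-p gene of each class, heat-inducible, muscle and ER panels, and in each partner list the highest gene. 1 gene that this rule took is not reported here. Hspa1l, Hspb11, Fkbp5 and Ppid, the ratios, the compartment grouping and the fit without paced 2 and paced 3 were chosen after values had been seen. Starts count from 1, and 13 genes share their coordinates with another row. Read-length stretches were compared with GENCODE transcripts, and promoters are from RefSeq (GRCm38.p6). For 65 of 76 promoters, bases 11 to 40 after the start were found in a GENCODE transcript of the gene on the same strand. Where in the transcript they lay was not tested. The genes without a promoter entry are Dnajc11, Dnajc12, Dnajc18, Dnajc2, Dnajc22, Dnajc30, Dnajc5, Dnajc5b, Hsp90aa1, Hsp90ab1, Hspa13, Hspa8, Hspa9 and Hspb2.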

Additional observations from a re-analysis of the deposited data

How the results depend on the processing

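No chaperone passed the adjusted threshold under any of the 18 alternatives, and the cause of the shifts below was not tested. The chaperones higher at an unadjusted p under 0.05 (3) were 1 with quantile normalization and 1 to 3 with a mouse left out. The lower ones (4) were 2 with same-sum rescaling, 2 with the replicate block and 1 to 8 with a mouse left out. Over all genes tested, 620 were higher and 442 lower at that p in the main fit. The same counts were 537 and 581 with quantile normalization, 968 and 148 with same-sum rescaling, and 592 and 315 with the replicate block. As a share of all genes they were 8.85% in the main fit, 8.91% with the filter at a mean FPKM of 5, 9.3% with same-sum rescaling and 9.36% centred. With a mouse left out this share was 6% to 14.5%. The replicate numbers do not pair the mice (correlations of -0.125, -0.022 and -0.02), and with the replicate block 2 chaperones were higher and 2 lower. Partner genes at that p (2) were 1 with a filter at 5, 5 with same-sum rescaling, 4 centred, 1 without paced 2 and 3, and 1 to 9 with a mouse left out. The smallest adjusted p of a chaperone ranged from 0.127 to 0.812.

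With the same-sum rescaling the medians were 0.0246 for Hspa, -0.0707 for Hspb, 0.0545 for Dnajc, -0.0335 for the other Hsp genes and 0.0617 for all chaperones. The median over all genes tested was 0.0615 in that fit. Without the filter the medians were 0.0067 for Hspa and -0.0896 for Hspb. Without paced 2 and 3 they were 0.168 for Hsp90 and 0.0047 for the other Hsp genes. With a mouse left out, Hsp90 ranged from -0.0978 to 0.0911, Hspb from -0.168 to -0.0696, Hspa from -0.0675 to -0.0108, Dnaja from -0.121 to -0.0204, Dnajb from 0.0366 to 0.161, Dnajc from -0.0588 to 0.0052, the other Hsp genes from -0.156 to -0.0474 and all from -0.0572 to 0.0016.

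Differences of some named genes changed sign, none of them past the adjusted threshold in either fit. With the same-sum rescaling these were Bag3 0.071, Calr 0.021, Dnajc8 0.047, Hsp90b1 0.068, Hspb1 0.076, Hspb7 0.047, Pfdn5 0.038 and Trap1 0.019. Quantile normalization gave Bag3 0.013, Hsf1 -0.013, Hsp90b1 0.015, Hspb1 0.042, Hspb7 0.011 and Pfdn5 0.0057, centring gave Dnaja2 -0.015, Hsf1 -0.017 and Hspa8 -0.0028, and array weights gave Dnaja2 -0.025 and Hspa8 -0.0082. Without paced 2 and 3, Bag3 was 0.17, Calr 0.13, Hsp90b1 0.17, Hspa5 0.010, Hspb1 0.030, Hspe1 0.043 and Trap1 0.0016. With a mouse left out, the ranges were -0.185 to 0.0023 for Bag1, -0.118 to 0.0655 for Bag3, -0.152 to 0.0262 for Calr, -0.100 to 0.0668 for Dnaja2, -0.0109 to 0.191 for Dnajb1, -0.0357 to 0.145 for Dnajb2, -0.0131 to 0.193 for Dnajb4, -0.0845 to 0.0312 for Dnajc8, -0.0592 to 0.0549 for Hsf1, -0.0978 to 0.0911 for Hsp90b1, -0.0675 to 0.125 for Hspa8, -0.0372 to 0.0449 for Hspb1, -0.159 to 0.0635 for Hspb7, -0.0933 to 0.151 for Hsph1 and -0.0907 to 0.0412 for Pfdn5.

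The depth limits Hspa1a and Hspa1b, at 4 to 32 fragments a library.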
